A study of Mus musculus with 8 samples.

Results

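The 67 genes described here encode the main xenobiotic-metabolizing enzymes expressed in mouse small intestinal organoids: cytochrome P450 enzymes of the families Cyp1 to Cyp4, UDP-glucuronosyltransferases (Ugt), sulfotransferases (Sult) and carboxylesterases (Ces). They were chosen by symbol and by level. Of 133 symbols of these families without pseudogenes, 67 had a TPM (a transcript level scaled for gene length and library total) of 1 or more in at least 2 of the 8 TPM columns, out of 55416 genes in the tables and 14389 genes past the same level. The members were 2 Cyp1, 23 Cyp2, 6 Cyp3, 9 Cyp4, 12 Ces, 11 Ugt and 4 Sult genes. Because these TPM values chose the members, 17 of the 67 did not reach the level in all 8 columns, 9 of them reached it in irradiated libraries only, and none in control libraries only. The 6 that reached it in irradiated organoids at day 4 alone were Ces2b, Ces2f, Cyp2c23, Cyp3a41a, Cyp3a57 and Cyp4a10. Cyp2d10, Cyp2d34 and Cyp2e1 reached it in irradiated libraries of both days and in no control. These 9 genes had to be higher after irradiation, and the 6 also lower at day 7 than at day 4 after irradiation, so their differences in those comparisons follow from the choice, and the counts below describe the 67 members that passed and support no statement about the families as a whole. Just inside the level, by the second-highest TPM, lay Cyp4a10 at 1.0, Cyp3a41a at 1.04 and Cyp2c50 at 1.24. Just outside it lay Ugt1a2 at 0.92, Sult1a1 at 0.87 and Ugt2b38 at 0.85.

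The organoids, three-dimensional cultures of gut epithelium, were grown in IntestiCult medium from intestinal epithelial cells of young C57BL/6 mice. All groups, controls included, were Rosa26-rtTA Tg/Tg and also Col1A1-TetO-OSKM Tg/Tg, which together form a doxycycline-inducible set of reprogramming factors; the labels do not mention induction. Controls at day 4, controls at day 7, organoids given 6 Gy of X-rays at day 4 and organoids given 6 Gy at day 7 each had 2 libraries of poly-A selected RNA. The labels say neither from when the days were counted nor whether replicates came from separate cultures or mice, so p-values measure only the spread between these libraries, which may be technical.

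Xenobiotic metabolism is usually divided into phases. In phase I, cytochrome P450 enzymes oxidize drugs, food chemicals, steroids and fatty acids, using electrons passed on by the reductase Por, and carboxylesterases cut ester and amide bonds. In phase II, Ugt enzymes attach glucuronic acid and Sult enzymes attach sulfate, which makes the products easier to excrete. The small intestine carries these enzymes mainly in absorptive enterocytes, the first cells that swallowed chemicals meet, and many of the genes are targets of the nuclear receptors Nr1i2 (PXR) and Nr1i3 (CAR), of Hnf4a or of the aryl hydrocarbon receptor Ahr.

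The bases before the annotated start are shown for 5 genes on which the results turn: the highest Cyp3 and Cyp2 genes after irradiation, 2 genes of the Cyp2c cluster that moved in opposite directions, and the Cyp1 gene called at day 7. Each is 250 bases ending at the base before the start, 5′ to 3′ on the strand of the gene, from RefSeq on GRCm38.p6. Capitals mark matches, on either strand, to GCGTG (the core of the site bound by Ahr), to AGGTCA or AGTTCA (core letters of nuclear receptor sites) and to CAAAGTCCA (a site form known for Hnf4); CACGC and TGAACT are GCGTG and AGTTCA read on the other strand. No marked base belongs to more than 1 motif in these windows.
Cyp3a11 (chr5:145879855-145880104, minus strand): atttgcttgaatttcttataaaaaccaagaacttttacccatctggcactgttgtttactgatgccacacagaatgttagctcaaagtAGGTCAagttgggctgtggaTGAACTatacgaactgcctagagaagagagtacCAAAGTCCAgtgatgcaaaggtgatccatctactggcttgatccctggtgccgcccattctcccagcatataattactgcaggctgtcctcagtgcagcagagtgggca
Cyp2c29 (chr19:39286835-39287084, plus strand): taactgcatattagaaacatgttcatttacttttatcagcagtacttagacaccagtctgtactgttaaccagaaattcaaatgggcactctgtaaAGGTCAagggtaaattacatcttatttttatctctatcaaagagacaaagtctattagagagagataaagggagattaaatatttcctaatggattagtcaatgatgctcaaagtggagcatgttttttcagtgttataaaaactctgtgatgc
Cyp2c65 (chr19:39060756-39061005, plus strand): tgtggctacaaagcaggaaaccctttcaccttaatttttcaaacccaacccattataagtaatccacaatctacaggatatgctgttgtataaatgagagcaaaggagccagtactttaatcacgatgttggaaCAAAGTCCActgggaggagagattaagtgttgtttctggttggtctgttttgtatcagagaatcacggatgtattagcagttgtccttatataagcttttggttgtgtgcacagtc
Cyp2c68 (chr19:39741102-39741351, minus strand): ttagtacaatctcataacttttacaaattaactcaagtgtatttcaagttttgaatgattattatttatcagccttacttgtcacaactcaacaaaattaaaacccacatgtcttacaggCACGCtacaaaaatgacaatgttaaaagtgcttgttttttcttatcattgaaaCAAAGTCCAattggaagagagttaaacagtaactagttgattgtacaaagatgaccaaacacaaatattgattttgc
Cyp1a1 (chr9:57697363-57697612, plus strand): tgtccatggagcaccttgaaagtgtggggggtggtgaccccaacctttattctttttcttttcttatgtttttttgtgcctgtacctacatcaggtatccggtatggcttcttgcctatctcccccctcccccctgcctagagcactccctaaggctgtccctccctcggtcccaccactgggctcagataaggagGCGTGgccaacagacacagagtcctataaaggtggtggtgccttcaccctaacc
Windows were found for 57 of the 67 members, 66 windows in all. CAAAGTCCA was in 6 of them (9.09%) against 0.38% of all 32851 RefSeq windows of the same length. The genes were Cyp2c65, Cyp2c67, Cyp2c68, Cyp2c70, Cyp3a11 and Cyp3a41a, and at day 4 they included 3 that rose, 2 that fell and Cyp2c70, which was not called. The Cyp2c genes among them lie in a single gene cluster and the Cyp3a genes in another, so these windows are not independent cases. AGGTCA was in 22.7% of the members' windows against 14.0% of all windows, AGTTCA in 16.7% against 11.8%, and GCGTG in 19.7% against 28.2%. A match is a description of the letters, not a bound site.

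Irradiated organoids carried more of these transcripts than controls, with the wider gap at day 4. For controls the TPM of the 67 genes added up to 2957 and 3093 on day 4 and to 2911 and 2911 on day 7. After irradiation the sums were 8584 and 9478 at day 4 and 5425 and 5392 at day 7. Neither irradiated group overlapped with its controls, and the controls of the 2 days lay together. In the deposited TPM, which are scaled to the whole library, the median of all genes was shifted by -0.17 at day 4 and by 0.12 at day 7 on the log2(TPM + 1) scale, and changes in TPM are to be read against that shift.

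The order of the leading genes changed with irradiation. Ces2a, a carboxylesterase, had the highest TPM of the members in all 4 control libraries, between 352 and 456. In all 4 irradiated libraries Cyp3a11, the counterpart of the main human drug-oxidizing P450, was highest, followed by Cyp2c29 and then Ces2a. Cyp3a11 made up 2.58% and 0.74% of the members' summed TPM in controls at day 4 and 23.4% and 24.8% after irradiation. At day 7 its share was 4.63% and 4.78% in controls and 12.8% and 12.7% after irradiation.

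**Figure D1:**
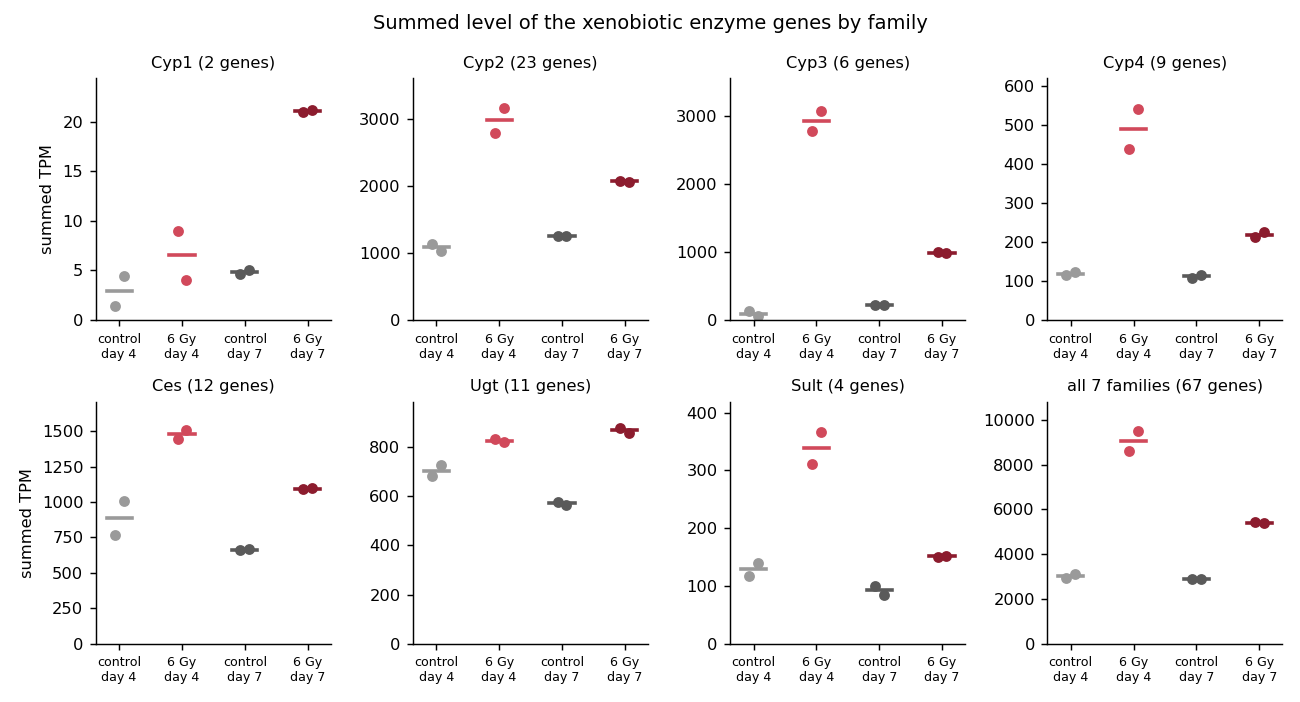
Summed TPM of each enzyme family (y axis, linear from 0) in the 8 libraries, by group on the x axis; points are libraries and short lines the mean of 2. Cyp3 shows the widest gap at day 4, from 131 and 59.1 TPM in controls to 2769 and 3073 after 6 Gy, while Ugt stays between 565 and 878 TPM in all libraries.

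By family, the Cyp3 genes summed to 131 and 59.1 TPM in day 4 controls against 2769 and 3073 TPM after irradiation, and to 215 and 219 against 997 and 982 TPM at day 7. The Cyp2 genes, the largest family by level in controls, stood at 1139 and 1034 TPM in controls at day 4 and 2782 and 3164 after irradiation, then at 1248 and 1251 against 2075 and 2057 at day 7. Carboxylesterases summed to 769.9 and 1006 TPM against 1445 and 1507 at day 4, and to 658 and 670 against 1092 and 1095 at day 7. For these 3 families every irradiated library lay above every control library of its day, and the irradiated level at day 7 was under that at day 4.

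The Cyp4 genes summed to 116 and 123 TPM in controls and 438 and 543 after irradiation at day 4, and to 108 and 116 against 213 and 226 at day 7. Sulfotransferases stood at 118 and 140 against 311 and 366 TPM at day 4 and at 100.2 and 84.1 against 149.98 and 152 at day 7. Glucuronosyltransferases stood at 681 and 727 against 831 and 822 TPM at day 4 and at 576 and 565 against 878 and 858 TPM at day 7. With TMM scaling the median log2 fold change of the 11 Ugt genes was 0.49 at day 4 and 0.51 at day 7, so the wider gap of the sums at day 7 is not seen in those medians. The Cyp1 sum was low, at 1.46 and 4.40 against 9.0 and 4.04 TPM at day 4, where the groups overlapped, and 4.67 and 5.05 against 20.9 and 21.2 at day 7, where they did not.

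Libraries held 7541764 to 16054269 expected counts, so 1 count is a small share of most members' totals. Transcripts of the mitochondrial genome took 12.9% to 27.6% of counts, with the highest share in irradiated day 4 replicate 2. Replicates differed beyond counting noise in all 4 groups and lay further apart at day 4, with a biological coefficient of variation of 0.136 in controls and 0.173 after irradiation, than at day 7, with 0.0470 and 0.0410.

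Single genes were tested with edgeR's quasi-likelihood test over all 14063 genes that passed a filter on low counts, and a gene was called at a Benjamini-Hochberg adjusted p under 0.05; adjusted p-values below come from that fit unless another is named. Levels of single genes are in CPM (read counts scaled to library size by TMM), fold changes are log2 values of the same fit, and the error after ± is their standard error, approximated from the test statistic. Each group has n = 2. In bulk RNA, fewer cells of a type and less RNA per cell cannot be told apart.

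At day 4, 43 of the 67 members rose after irradiation and 5 fell. Their median log2 fold change was 1.29, and that of all genes tested was 0.0029. Of the 48 calls, 39 held without each library in turn. Of all 14063 genes, 20.0% were called higher and 16.5% lower. Among the 50 members with a TPM of 1 or more in all 8 columns, which leaves out 17 genes, the 9 that passed in irradiated libraries only among them, 30 rose and 5 fell and the median was 0.77. Among the 36 members with a mean TPM of 10 or more, a mean that includes the irradiated columns, 26 rose and 5 fell, with a median of 1.22.

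All 6 Cyp3 genes were called higher at day 4, among them Cyp3a41a and Cyp3a57, whose choice fixed that direction. Cyp3a11 stood at 138 and 38.3 CPM in controls and at 3602 and 5287 CPM after irradiation, a log2 fold change of 5.66 ± 0.73 (adjusted p = 0.00459). Its control libraries differed from each other by more than those of most members, yet both lay far below the irradiated ones. Cyp3a13, a form known for its level in the intestine, had closer replicates: 69.3 and 45.2 CPM against 1176 and 1185 CPM, a rise of 4.37 ± 0.18 (adjusted p = 1.66e-06). Cyp3a25 stood at 30.9 and 17.4 CPM in controls and 331 and 555 CPM after irradiation, a rise of 4.21 ± 0.38 (adjusted p = 0.000862).

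The other Cyp3 members were scarce in controls. Cyp3a41a had 1 count over the control libraries and 67 over the irradiated ones at day 4, a ratio of 102 with an exact 95% interval, for counting error only, of 17.7 to 4088. Nearly all of its 50-base stretches, 98.6%, also occur in other genes, mainly Cyp3a41b, so its counts depend on how reads were divided. Cyp3a57 had 3 counts against 51, a ratio of 25.9 (8.37 to 129.6). Cyp3a59, which shares 30.02% of its stretches, stood at 2.22 and 1.04 CPM against 5.91 and 5.44 CPM, a rise of 1.84 ± 0.38 (adjusted p = 0.00392). By the same measure 6.73% of Cyp3a11 and none of Cyp3a13 is shared with other transcripts.

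Among the Cyp2 genes, 15 of 23 rose at day 4 and 3 fell. The 15 include Cyp2c23, Cyp2d10, Cyp2d34 and Cyp2e1, whose rise the choice of members fixed. Cyp2c29, an epoxygenase of arachidonic acid, stood at 78.7 and 23.6 CPM in controls and 1412 and 1942 CPM after irradiation, a rise of 5.05 ± 0.65 (adjusted p = 0.00458). The same control library that was low for Cyp3a11, replicate 2, was low for Cyp2c29. Cyp2b10, the classical target of Nr1i3, went from 51.0 and 27.7 CPM to 362 and 412 CPM, a rise of 3.31 ± 0.28 (adjusted p = 0.000328). Cyp2j6, from a subfamily that acts on fatty acids, stood at 215 and 177 against 558 and 726 CPM (1.71 ± 0.13, adjusted p = 1.97e-05). Cyp2e1, which oxidizes ethanol and was a member through irradiated libraries only, was low in controls, at 1.36 and 0.61 CPM, and reached 11.2 and 9.15 CPM (3.40 ± 0.37, adjusted p = 0.000102).

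The 4 Cyp2d members were called higher, a direction that the choice of members fixed for Cyp2d10 and Cyp2d34. Cyp2d34 had 8 counts in controls and 69 after irradiation, a ratio of 13.1 (6.31 to 31.6), and Cyp2d10 had 18 against 108, a ratio of 9.13 (5.51 to 15.99). Cyp2d26, the most abundant of them, stood at 100.2 and 71.4 CPM against 274 and 538 CPM (2.25 ± 0.35, adjusted p = 0.00643). Cyp2d22 kept no call without control replicate 1 (adjusted p = 0.133), control replicate 2 (0.0748) or irradiated replicate 2 (0.460) of day 4, nor without control day 7 replicate 1 (0.0524) or 2 (0.0520); its irradiated libraries stood at 1.61 and 7.73 CPM.

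The gut forms Cyp2c55, Cyp2c65 and Cyp2c66, which were already abundant in controls, rose by less than their neighbour Cyp2c29. Cyp2c55 stood at 511 and 373 CPM in controls and 629.98 and 964 CPM after irradiation (0.85 ± 0.22, adjusted p = 0.0209), a call lost without control day 4 replicate 2 (adjusted p = 0.106) or irradiated day 4 replicate 2 (0.0665). Cyp2c66 went from 254 and 245 CPM to 354 and 525 CPM (0.82 ± 0.15, adjusted p = 0.00382), and Cyp2c65 from 284 and 266 CPM to 374 and 505 CPM (0.68 ± 0.13, adjusted p = 0.00264). Cyp2c65 shares 20.2% of its stretches with Cyp2c66, which shares 19.5% with it.

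Falls at day 4 were few and smaller. Within the same cluster, Cyp2c67 fell from 24.5 and 22.4 CPM to 12.5 and 14.8 CPM (-0.78 ± 0.14, adjusted p = 0.00218) and Cyp2c68 from 85.1 and 82.5 CPM to 42.4 and 61.7 CPM (-0.69 ± 0.15, adjusted p = 0.00571). They share 52.8% and 43.3% of their stretches with other genes, mainly Cyp2c40, and are uncertain for that reason. Cyp2s1, a P450 of epithelia outside the liver, stood at 93.2 and 103 CPM in controls and 19.1 and 50.7 CPM after irradiation (-1.49 ± 0.41, adjusted p = 0.0387). Its call was lost without any 1 of 6 libraries, with adjusted p of 0.0998 and 0.141 without control day 4 replicates 1 and 2, 0.0778 and 0.0745 without the day 7 controls, and 0.0743 and 0.0750 without the irradiated day 7 libraries; no stretch of it is shared with another gene.

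**Figure D2:**
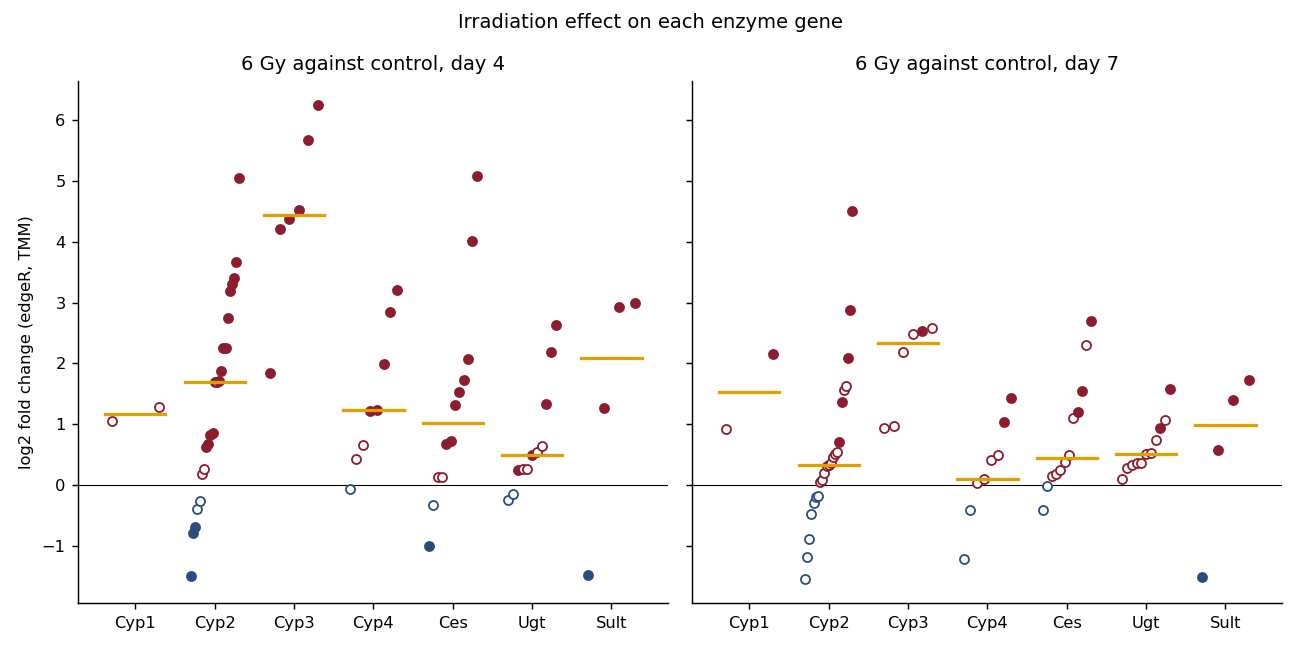
Log2 fold change (y axis) of each member, 6 Gy against control, at day 4 (left) and day 7 (right), by family; filled points were called at an adjusted p under 0.05, open points were not, red is above and blue below 0, and the gold line is the family median. Cyp4a10, with no count in irradiated libraries at day 7, has no point; all 6 Cyp3 genes are called at day 4, with a median of 4.44, and 1 of 6 at day 7.

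Of the Cyp4 genes, which hydroxylate the far end of fatty acids and leukotrienes, 6 of 9 rose at day 4 and none fell. The rise of Cyp4a10, among the 6, was fixed by the choice of members. Cyp4f14 went from 54.4 and 38.9 CPM to 345 and 516 CPM (3.21 ± 0.23, adjusted p = 0.000124), and Cyp4b1 from 17.5 and 13.5 CPM to 85.1 and 135 CPM (2.84 ± 0.24, adjusted p = 9.51e-05). Cyp4f16 stood at 33.5 and 33.8 against 71.5 and 84.2 CPM (1.21 ± 0.12, adjusted p = 5.68e-05). Cyp4v3 stood at 59.5 and 66.3 against 160.2 and 337 CPM (1.98 ± 0.35, adjusted p = 0.00947) and lost its call without either day 4 control, with adjusted p of 0.0649 and 0.0617. Cyp4a10, a well-known target of Ppara, had 7 counts in controls and 51 after irradiation, a ratio of 11.1 (5.01 to 29.0).

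Among carboxylesterases, 8 of 12 rose at day 4 and Ces1e fell. The choice of members fixed the rise of Ces2b and Ces2f, which are among the 8. The abundant Ces2a stood at 514 and 612 CPM in controls and 787 and 1076 CPM after irradiation (0.73 ± 0.14, adjusted p = 0.00340). Ces2c changed by more, from 154 and 175 CPM to 636 and 749 CPM (2.07 ± 0.10, adjusted p = 8.36e-07), and shares 36.1% of its stretches, mainly with the pseudogene Ces2d-ps, whose TPM stayed at or under 1.57. Ces2e stood at 308 and 385 against 458 and 649.8 CPM (0.68 ± 0.16, adjusted p = 0.0128), a call lost without control day 4 replicate 1 (adjusted p = 0.0952). Ces2g stood at 119.8 and 145 against 159.8 and 132 CPM and was not called (adjusted p = 0.378). At the low end, Ces2f had 6 counts against 140, a ratio of 35.5 (15.9 to 98.4), and Ces2b 9 against 100, a ratio of 16.9 (8.56 to 38.1).

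In the Ces1 cluster, Ces1f rose from 25.3 and 37.9 CPM to 78.1 and 132 CPM (1.72 ± 0.29, adjusted p = 0.00507) and Ces1g from 2.39 and 3.23 CPM to 7.85 and 6.31 CPM (1.32 ± 0.25, adjusted p = 0.00244). Their neighbour Ces1e, the esterase known as egasyn, which holds beta-glucuronidase in the endoplasmic reticulum, fell from 30.7 and 31.3 CPM to 16.2 and 14.7 CPM (-1.0 ± 0.12, adjusted p = 0.000177). The day 4 control libraries of Ces1e lay within 1 CPM of each other.

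Sulfotransferases were split. Sult1b1, which acts on thyroid hormones and phenols, rose from 22.4 and 20.7 CPM to 128 and 216 CPM (3.0 ± 0.26, adjusted p = 0.000257). Sult1d1, which acts on catecholamines, rose from 96.3 and 97.7 CPM to 209.7 and 256 CPM (1.26 ± 0.10, adjusted p = 1.59e-05). Sult2b1, an enzyme of cholesterol sulfation, rose from 1.53 and 2.01 CPM to 11.3 and 16.1 CPM (2.92 ± 0.29, adjusted p = 4.82e-05). Sult1c2 fell, from 38.4 and 42.4 CPM to 11.3 and 17.9 CPM (-1.47 ± 0.19, adjusted p = 0.000277). Sult1b1, Sult1d1 and Sult2b1 have no stretch in common with another gene.

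Glucuronosyltransferases had the lowest family median at day 4, 0.49, with 5 of 11 called higher and none lower. Ugt2b34, the Ugt gene with the highest TPM in all control libraries, stood at 722 and 749 CPM against 926 and 1139 CPM (0.49 ± 0.11, adjusted p = 0.00498). Ugt2b5 went from 6.99 and 5.42 CPM to 23.0 and 33.2 CPM (2.19 ± 0.20, adjusted p = 3.74e-05), and 41.7% of its stretches are shared. Ugt1a1, the enzyme that conjugates bilirubin, stood at 322 and 288 against 308 and 426 CPM, groups that overlap, and was not called (adjusted p = 0.145). Ugt2b35 stood at 145 and 151 against 143 and 126 CPM and was not called either (adjusted p = 0.224).

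The Ugt1a genes share their last exons, so 52.1% to 79.8% of the stretches of each member occur in another gene, and single values are uncertain. Their summed TPM was 281 and 283 in controls and 299.8 and 306 after irradiation at day 4. Ugt1a7c, at 183 and 174 against 207 and 215 CPM, was called at day 4 with a rise of 0.24 ± 0.08 (adjusted p = 0.0354). That call held only without irradiated day 4 replicate 1: leaving out any of the other 7 libraries gave adjusted p from 0.0555 (without control day 4 replicate 1) to 0.140 (without control day 4 replicate 2).

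The 2 Cyp1 genes, whose best-known regulator is Ahr, were not called at day 4. Cyp1a1, which oxidizes polycyclic aromatic compounds, stood at 2.30 and 7.62 CPM in controls and 15.6 and 9.69 CPM after irradiation (1.29 ± 0.47, adjusted p = 0.0781). Cyp1b1 stood at 0.94 and 1.16 against 3.44 and 0.98 CPM (1.06 ± 0.50, adjusted p = 0.127). Without control day 4 replicate 2 Cyp1a1 was called, with a log2 fold change of 2.45, and without irradiated day 4 replicate 2 Cyp1b1 was, with 1.69; without irradiated day 4 replicate 1 the value of Cyp1b1 was -0.13.

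**Figure D3:**
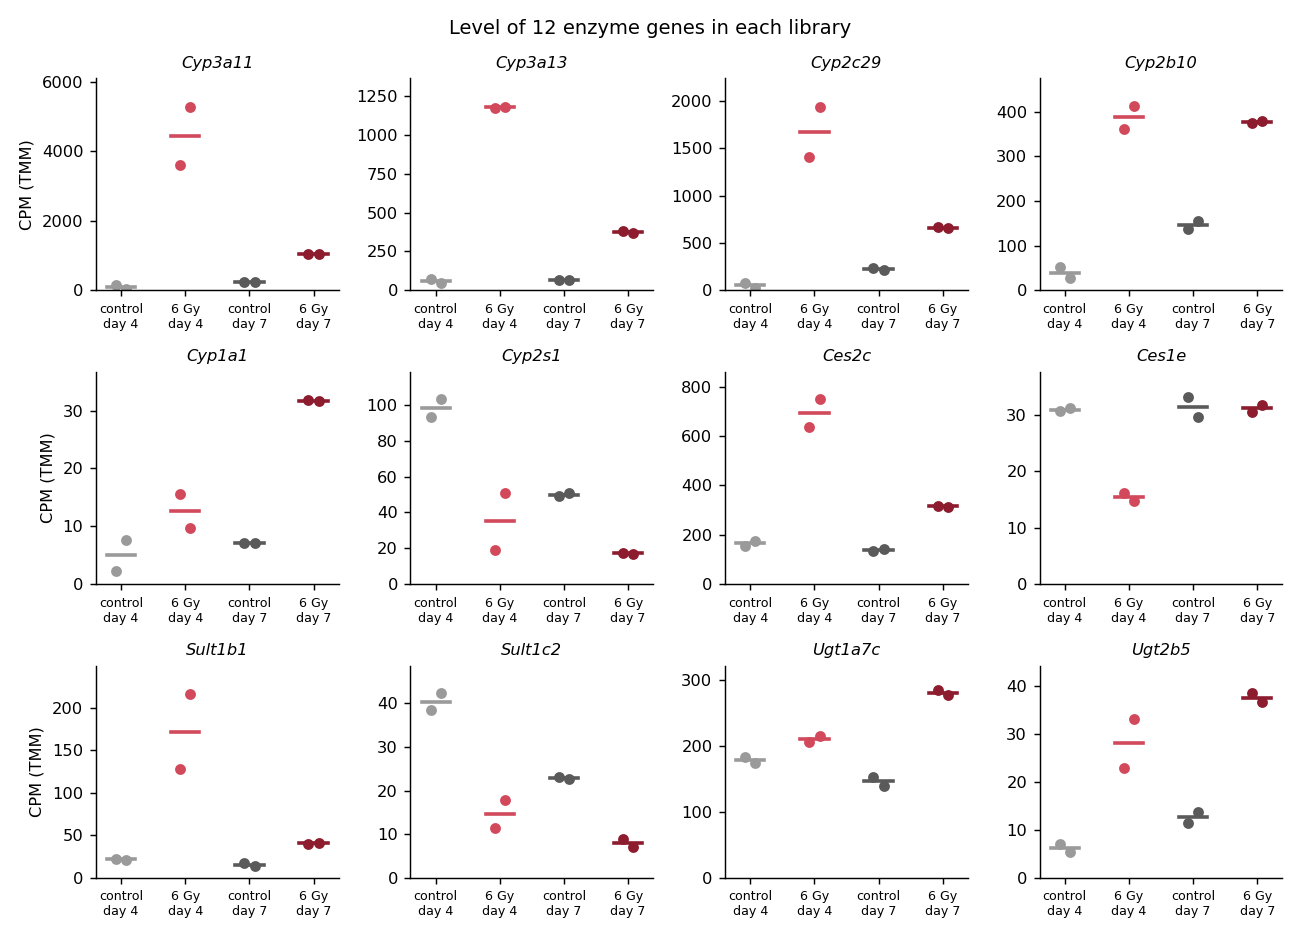
CPM (y axis, linear from 0, a scale for each gene) of 12 enzyme genes in the 8 libraries by group; points are libraries and short lines the mean of 2. Cyp3a11, Cyp3a13, Cyp2c29, Ces2c and Sult1b1 peak in irradiated organoids at day 4, whereas Cyp1a1, Ugt1a7c and Ugt2b5 are highest in irradiated organoids at day 7.

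Markers of cell types also changed, in directions that differed between the types. For these and the lists that follow, 20.0% of all genes tested were called higher at day 4 and 16.5% lower. At day 7 the shares were 4.70% and 3.95%. All 16 enterocyte markers rose at day 4 (median 2.54 on the log2 scale), and their summed TPM was 1909 to 2099 in controls and 7549 to 10518 after irradiation. At day 7, 5 of 16 were called higher, and the sums were 1914 to 1931 against 3451 to 3475 TPM. Of 5 stem cell markers 3 fell at day 4, with sums of 696 to 792 against 329 to 368 TPM, and all 5 Paneth cell markers rose, with sums of 1654 to 2523 against 5514 to 6213 TPM. Of 7 goblet cell markers 3 rose and 2 fell at day 4, of 6 enteroendocrine markers 1 rose, and the 4 tuft cell markers that could be tested all fell. The part of these cell types in the enzyme changes was not tested. The share of mitochondrial transcripts was also highest in irradiated day 4 replicate 2. With mitochondrial genes taken out of the libraries, an alternative chosen after seeing the data, 48 members were again called at day 4. That fit removes those counts only, and whether this library differs in other ways was not tested.

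Of the 8 hepatocyte markers, Fgb and Ahsg were at 0 in every library, Fga, Serpina1a and Apoh stayed at or under 0.50 TPM, and Alb lay between 0.45 and 4.55 TPM. Ttr lay between 17.0 and 58.3 TPM and Cps1, which the intestine also makes, between 223 and 570.4 TPM. Over the 8 the sum was 399 to 455 TPM in controls and 248.5 to 250.1 TPM after irradiation at day 4, and the 3 that could be tested, Alb, Ttr and Cps1, all fell; their part in the enzyme values was not tested. Summed TPM of mesenchymal markers was 0.41 to 1.1, of immune markers 2.88 to 4.76 and of endothelial markers 1.37 to 6.71, with the endothelial genes Cdh5 and Kdr at 0.

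Of 13 listed regulators of these enzymes, 12 were tested, 6 rose at day 4 and 1 fell, with a median log2 fold change of 0.40. The shares of all genes were 20.0% higher and 16.5% lower. Nr1i2, the xenobiotic receptor PXR, stood at 19.1 and 18.9 TPM in controls and 31.5 and 26.9 TPM after irradiation (log2 fold change 0.82 ± 0.10, adjusted p = 0.000166). Nr1i3 stood at 9.95 and 13.9 against 25.7 and 28.6 TPM (1.24 ± 0.18, adjusted p = 0.000499), Nr1h4, the bile acid receptor, rose by 0.90 ± 0.16 (adjusted p = 0.00149) and Nfe2l2, the regulator of oxidant defence, by 0.41 ± 0.10 (adjusted p = 0.00781). Hnf4a fell by 0.28 on the log2 scale (adjusted p = 0.0178), from 203 and 224 TPM to 164 and 139.7 TPM. Ahr stood at 6.59 and 5.86 against 5.13 and 4.26 TPM and was not called (adjusted p = 0.333), and Ahrr was too low to test, at 0.12 to 0.62 TPM over all libraries. At day 7 Nr1i2 alone of the 12 was called, with a rise of 0.43 ± 0.10 (adjusted p = 0.0286). The share of all genes called higher was 4.70%.

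Electron donors and suppliers of cofactors mostly rose at day 4, 9 of 12, and 2 fell, beside 20.0% and 16.5% of all genes. Cyb5r3, the reductase of cytochrome b5, rose by 1.58 ± 0.10 (adjusted p = 3.52e-06), Cyb5a, cytochrome b5 itself, by 1.14 ± 0.11 (adjusted p = 3.74e-05), and Alas1, the first enzyme of heme synthesis, by 1.12 ± 0.09 (adjusted p = 1.97e-05). Por, the electron donor of all microsomal P450 enzymes, stood at 117 and 119 against 137 and 114 TPM and rose by 0.35 ± 0.08 (adjusted p = 0.00864) after TMM scaling. For sulfation, Papss2, which makes the sulfate donor PAPS, went from 8.12 and 6.21 TPM to 33.8 and 38.5 TPM (2.50 ± 0.22, adjusted p = 0.000112), while Papss1 fell by 0.75 on the log2 scale (adjusted p = 6.24e-05). The sulfate transporter Slc26a2 rose by 1.58 ± 0.12 (adjusted p = 1.34e-05). For glucuronidation, Ugdh, which makes UDP-glucuronic acid, went from 130.2 and 95.5 TPM to 227 and 189.8 TPM (1.13 ± 0.13, adjusted p = 0.000192). At day 7, 6 of the 12 rose, among them Cyb5r3 by 1.04 ± 0.10, Papss2 by 1.39 ± 0.22 and Ugdh by 0.66 ± 0.13, and none fell.

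Of 19 other phase I and II enzymes, 15 were tested, 8 rose at day 4 and Fmo1 fell, beside 20.0% and 16.5% of all genes. Fmo5, a flavin monooxygenase, went from 2.01 and 1.44 TPM to 33.6 and 42.3 TPM (4.59 ± 0.28, adjusted p = 1.7e-05) and Aldh1a1, a retinal dehydrogenase, from 32.5 and 23.9 TPM to 211 and 201 TPM (3.08 ± 0.19, adjusted p = 1.97e-05). The epoxide hydrolases Ephx1 and Ephx2 rose by 1.69 ± 0.14 (adjusted p = 2.91e-05) and 2.51 ± 0.21 (adjusted p = 0.000117). At day 7, 6 of the 15 rose and none fell.

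Of 12 drug transporters, 6 rose at day 4 and Slco2b1 fell, beside 20.0% of all genes called higher and 16.5% lower. Abcc2, an exporter of conjugates, went from 78.9 and 97.7 TPM to 177 and 181 TPM (1.32 ± 0.09, adjusted p = 6.21e-06). The peptide carrier Slc15a1 went from 1.64 and 0.74 TPM to 31.9 and 36.7 TPM (5.12 ± 0.34, adjusted p = 4.87e-05). Abcb1a and Abcb1b, both P-glycoproteins, rose by 0.67 ± 0.10 (adjusted p = 0.000727) and 3.39 ± 0.29 (adjusted p = 0.000107), and Slc22a18 by 1.499 ± 0.18 (adjusted p = 0.000176). Abcg2, another drug exporter, stood at 34.3 and 31.9 against 33.3 and 34.3 TPM and was not called (adjusted p = 0.140). At day 7, 3 of the 12 rose, beside 4.70% of all genes.

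At day 7, 17 of the 67 members were called higher after irradiation and 1 lower. Their median was 0.50 on the log2 scale, where 4.70% of all genes tested were called higher and 3.95% lower. The 17 include Cyp2d10, Cyp2d34 and Cyp2e1, whose direction the choice of members fixed. Among the 50 members with a TPM of 1 or more in all 8 columns, 13 rose and 1 fell, with a median of 0.40. The spread in that fit is shared with the more variable day 4 libraries. When only the 4 libraries of day 7 were fitted, 38 of the 60 members tested were called higher and 7 lower, beside 18.8% and 17.5% of 13041 genes. Leaving out 1 library moved the share of all genes called in the same direction as the count of members, so these shifts are not particular to the enzyme genes. Without 1 of the day 7 libraries 6 to 8 members were called, without irradiated day 4 replicate 1 or 2 there were 27 or 28, and without either day 4 control 21. Of the 18 calls, 6 held in all 8 such fits: Ces1g, Ces2c, Cyp3a13, Cyp4f16, Ugt1a7c and Ugt2b5.

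Of the genes that kept their calls, Cyp3a13 stood at 63.0 and 66.1 CPM in controls at day 7 and 379 and 369 CPM after irradiation (2.53 ± 0.17, adjusted p = 0.000242). Ces1g went from 1.503 and 1.56 CPM to 10.3 and 9.75 CPM (2.699 ± 0.28, adjusted p = 0.000723), and Ces2c from 132 and 142 CPM to 316 and 314 CPM (1.20 ± 0.10, adjusted p = 0.000242). Ugt2b5 stood at 11.5 and 13.7 against 38.6 and 36.7 CPM (1.58 ± 0.19, adjusted p = 0.00167). Ugt1a7c stood at 153 and 139.7 against 285 and 277 CPM (0.94 ± 0.08, adjusted p = 0.000242), and the Ugt1a sum at 259 and 257 against 419 and 415 TPM. Cyp4f16 went from 26.6 and 32.8 CPM to 59.2 and 63.5 CPM (1.04 ± 0.13, adjusted p = 0.00159).

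The other 12 calls at day 7 were lost without at least 1 library. Sult1c2 fell from 23.1 and 22.7 CPM to 8.88 and 7.10 CPM (-1.51 ± 0.21, adjusted p = 0.00380), a call lost without irradiated day 7 replicate 2 (adjusted p = 0.0690). Cyp2d10, Cyp2d34 and Cyp2e1 were members through irradiated libraries only, so their rises follow from the choice. Cyp2d10 had 3 counts in controls and 65 after irradiation, a ratio of 24.2 (7.91 to 120.2), and Cyp2d34 4 against 28, a ratio of 7.80 (2.73 to 30.6). Cyp2d10 was lost without control day 7 replicate 1 (adjusted p = 0.0577) or either irradiated day 7 library (0.05002 and 0.0537), and Cyp2d34 without any 1 of the 4 day 7 libraries (0.0859 to 0.228). Cyp1a1 stood at 7.09 and 7.17 against 31.8 and 31.6 CPM (2.15 ± 0.45, adjusted p = 0.0384) and was not called without any 1 of the 4 day 7 libraries, with adjusted p of 0.155 to 0.255. Cyp2e1 had 8 counts against 31, a ratio of 4.32 (1.94 to 10.9), and was lost without the same 4 libraries (adjusted p of 0.153 to 0.245).

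Cyp2b10 stood at 138 and 154 against 375 and 379 CPM (1.37 ± 0.25, adjusted p = 0.0294). Sult2b1 stood at 2.36 and 1.66 against 6.02 and 7.22 CPM (1.72 ± 0.31, adjusted p = 0.00955), and Sult1b1 at 17.4 and 13.3 against 40.1 and 40.9 CPM (1.40 ± 0.28, adjusted p = 0.0317). Cyp4f14 stood at 48.8 and 51.0 against 131 and 138 CPM (1.43 ± 0.23, adjusted p = 0.0155), and Ces1f at 32.2 and 30.9 against 88.9 and 96.1 CPM (1.55 ± 0.29, adjusted p = 0.0309). Smaller rises were called for Cyp2j6 (0.71 ± 0.13) and Sult1d1 (0.58 ± 0.10). Each of these 7 calls was lost without any 1 of the 4 day 7 libraries. The call of Sult1b1 was also lost without either day 4 control, and that of Cyp2b10 without either irradiated day 4 library.

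Cyp3a11 and Cyp2c29, the leading genes at day 4, were not called at day 7 although their libraries lay well apart. Cyp3a11 stood at 228 and 232 CPM in controls and 1055 and 1037 CPM after irradiation (2.19 ± 0.62, adjusted p = 0.114), and Cyp2c29 at 229.6 and 216 against 665 and 657 CPM (1.57 ± 0.56, adjusted p = 0.170). Fitting only the day 7 libraries called both, with adjusted p of 4.43e-29 and 8.94e-25. In that fit, of 2 libraries against 2 with little spread, 18.8% of 13041 genes were called higher and 17.5% lower. Its p-values measure only that spread, which may be technical. Cyp2s1 stood at 49.2 and 50.7 against 17.5 and 16.7 CPM (-1.55 ± 0.44, adjusted p = 0.104) and was likewise called in that fit (adjusted p = 4.17e-15). DESeq2 on all libraries called Cyp3a11 (adjusted p = 0.00775) and Cyp2s1 (0.0263) but not Cyp2c29 (0.0694).

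Whether the irradiation effect differed between the days was tested as the day 7 effect minus the day 4 effect, 2 effects that share no libraries. The effect was smaller or more negative at day 7 for 12 members and larger for 4, with a median difference of -0.69, where 4.60% of all genes were called higher and 5.51% lower. For Ces2f and Cyp4a10, 2 of the 12, the choice of members fixed the day 4 rise that enters this difference. The 4 to 12 split rests on the day 7 libraries: 2 were higher and 2 lower without control replicate 1 of that day, 0 and 2 without control replicate 2, and 2 and 1 without either irradiated replicate. Without irradiated day 4 replicate 1 it was 5 and 25. The share of all genes called also fell without any 1 of those day 7 libraries, and rose without irradiated day 4 replicate 1. The largest called decreases with enough counts were those of Cyp3a25 (-3.27 ± 0.49, adjusted p = 0.0202), Cyp4b1 (-2.43 ± 0.37, adjusted p = 0.00951) and Cyp2b10 (-1.94 ± 0.36, adjusted p = 0.0261). For Cyp3a13 the difference was -1.84 ± 0.23 (adjusted p = 0.00412), the only one of the 16 called in all 8 fits that left out 1 library.

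The other 15 were lost without at least 1 library. Cyp3a25 was lost without any 1 of the 4 day 7 libraries (adjusted p of 0.0851 to 0.0948), and Cyp4b1 without control day 7 replicate 1 (0.0554) or either irradiated day 7 library (0.0612 and 0.0597). Cyp2b10 was lost without any 1 of 6 libraries (both irradiated day 4 libraries and the 4 of day 7), with the highest adjusted p of 0.121 without irradiated day 4 replicate 2. In the other direction stood Ces1g (1.38 ± 0.38, adjusted p = 0.0440), Ces1e (0.99 ± 0.17, adjusted p = 0.00762), Ugt1a6a (0.77 ± 0.21, adjusted p = 0.0466) and Ugt1a7c (0.70 ± 0.11, adjusted p = 0.00580). Ces1g lost the call without any 1 of 6 libraries (control day 4 replicate 2, irradiated day 4 replicate 2 and the 4 of day 7), up to an adjusted p of 0.156, and Ugt1a6a without any 1 of 7 (all but irradiated day 4 replicate 1), up to 0.184. Ces1e and Ugt1a7c lost it without control day 7 replicate 2 only, at adjusted p of 0.0551 and 0.0541. Ces1e, lower after irradiation at day 4, stood at 33.3 and 29.6 CPM in controls and 30.6 and 31.8 CPM after irradiation at day 7, where the groups overlapped.

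**Figure D4:**
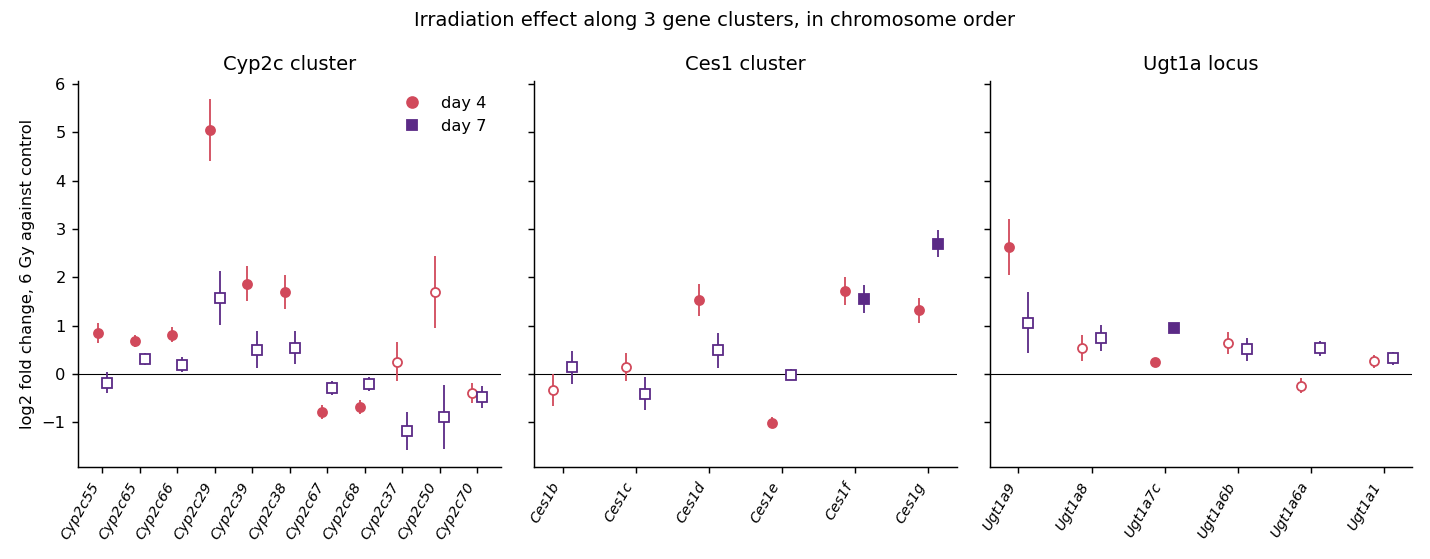
Log2 fold change with standard error (y axis), 6 Gy against control, at day 4 (circles) and day 7 (squares) for neighbouring members of 3 gene clusters in chromosome order (x axis, not to scale); filled symbols were called. Cyp2c29 stands at 5.05 at day 4 within a cluster that also holds the falls of Cyp2c67 and Cyp2c68. Ces1e lies below 0 at day 4 between Ces1d and Ces1f, which were called higher, Ces1d not without either day 4 control.

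Genes of 1 cluster did not move as a block. In the Cyp2c cluster, taken in RefSeq gene order, Cyp2c55, Cyp2c65, Cyp2c66, Cyp2c29, Cyp2c39 and Cyp2c38 rose at day 4, the next genes Cyp2c67 and Cyp2c68 fell, and Cyp2c37, Cyp2c50 and Cyp2c70 were not called. The fold changes among the 6 that rose ran from 0.68 for Cyp2c65 to 5.05 for Cyp2c29. In the Ces2 cluster 5 of 6 rose, from 0.68 for Ces2e to 5.08 for Ces2f. For Ces2f and Ces2b the choice of members fixed the rise. In the Ces1 cluster 3 of 6 rose, Ces1d, Ces1f and Ces1g, and 1 fell. The call of Ces1d was lost without either day 4 control. Of all genes tested, 20.0% were called higher at day 4 and 16.5% lower.

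Without irradiation, 2 of the 67 members (2.99%) were called higher at day 7 than at day 4 and 5 (7.46%) lower. Of all genes, 1.25% were called higher and 1.46% lower. Cyp2b10 went from 51.0 and 27.7 CPM at day 4 to 138 and 154 CPM at day 7 (1.91 ± 0.27, adjusted p = 0.0267) and Ugt2b5 rose by 1.04 ± 0.21 (adjusted p = 0.0342). Ces2g fell from 119.8 and 145 CPM to 61.6 and 61.9 CPM (-1.10 ± 0.12, adjusted p = 0.00165), and Ces2e from 308 and 385 CPM to 163 and 168 CPM (-1.07 ± 0.17, adjusted p = 0.0198). Sult1c2 (-0.82 ± 0.18), Ugt2b34 (-0.64 ± 0.11) and Sult1d1 (-0.55 ± 0.10) were the other falls. When 1 library was left out, the share of all genes called moved in the same direction as the count of members. The count was 1 without any 1 of the 4 day 7 libraries, 14 without either irradiated day 4 library, 12 (7 higher and 5 lower) without control day 4 replicate 1 and 3 (2 and 1) without control day 4 replicate 2. Only the Ces2g call held without each library in turn; the other 6 were lost without either control day 7 library, with adjusted p of 0.154 to 0.326, and without 3 or 4 further libraries each.

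After irradiation 34 of the 67 members were lower at day 7 than at day 4 and 4 higher, with a median of -0.82, where 18.3% of all genes were called lower and 14.7% higher. The 6 members that had passed the TPM level only in irradiated organoids at day 4 had to be lower here. They are Ces2b, Ces2f, Cyp2c23, Cyp3a41a, Cyp3a57 and Cyp4a10, and all are among the 34. Among the 50 members with a TPM of 1 or more in all 8 columns, 26 fell and 3 rose, with a median of -0.72. All 6 Ces2 genes, all 4 Sult genes and 7 of 9 Cyp4 genes were among the falls. The choice of members fixed the falls of Ces2b, Ces2f and Cyp4a10 in those counts, and that of Cyp3a57 below. Ces2f had 140 counts at day 4 and 8 at day 7, a ratio of 17.1 (8.47 to 40.5) between the days. Cyp4a10 had 51 counts at day 4 and 0 at day 7, at least 16.7-fold lower when the 0 is set to a floor of 3 counts, taken over both libraries together. Cyp3a57 had 51 counts against 6, a ratio of 8.33 (3.57 to 23.7).

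Better-counted falls included Cyp4b1, from 85.1 and 135 CPM to 12.8 and 13.2 CPM (-3.08 ± 0.25, adjusted p = 0.000226), and Cyp2e1, from 11.2 and 9.15 CPM to 1.74 and 1.68 CPM (-2.56 ± 0.36, adjusted p = 0.000791). Sult1b1 fell from 128 and 216 CPM to 40.1 and 40.9 CPM (-2.09 ± 0.25, adjusted p = 0.00156), and Cyp3a13 from 1176 and 1185 CPM to 379 and 369 CPM (-1.66 ± 0.16, adjusted p = 0.000292). All 16 enterocyte markers fell in the same comparison, with a median of -1.75; their part in the enzyme falls was not tested. Cyp3a11 stood at 3602 and 5287 CPM and then at 1055 and 1037 CPM but was not called (adjusted p = 0.0610). The share of all genes called fell without either irradiated day 7 library, as did the count of members. Without irradiated day 7 replicate 1 or 2 the count was 19 or 17. Of the 38 calls, 17 held without each library in turn, those of Cyp4b1, Cyp2e1, Sult1b1 and Cyp3a13 among them.

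The 4 members higher at day 7 than at day 4 after irradiation were Cyp1b1, from 3.44 and 0.98 CPM to 7.04 and 7.34 CPM (1.69 ± 0.44, adjusted p = 0.0144), Ces1e (1.01 ± 0.12, adjusted p = 0.000392), Ugt1a6a (0.51 ± 0.15, adjusted p = 0.0280) and Ugt1a7c (0.42 ± 0.08, adjusted p = 0.00328). Cyp1b1 lost the call without either irradiated day 7 library (adjusted p of 0.0680 and 0.0752), and Ugt1a6a without either of them (0.0536 and 0.141) or irradiated day 4 replicate 2 (0.146). Ces1e and Ugt1a7c kept theirs without each library in turn. On deposited TPM, where the median of all genes is shifted by 0.30 in this comparison, 10 members were called higher and 19 lower, and the fall of Cyp4f16 (-0.34 on counts) became 0.05.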

How the data were processed

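RNA from mouse small intestinal organoids was sequenced in 8 libraries, 2 in each of 4 groups. The authors deposited expected counts per gene, estimates that divide shared reads between genes, and TPM, per the file headers. The aligner was STAR 2.7.3a and the quantifier RSEM 1.3.3, per the submitters' processing notes, which name both GRCm39 and mm10. Neither strand setting nor annotation was given in the sources used here: overlapping and antisense genes may be mixed. Gene coordinates are printed for promoter windows only (RefSeq, GRCm38.p6). GENCODE M21 named 52083 of 55416 gene IDs. Expected counts were rounded, which changed 11.45% of values.

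One fit of 4 group means over all 8 libraries was made with edgeR 4.0.16 in R 4.3.3 (quasi-likelihood F-test, robust, TMM, filterByExpr with minimum count 10 and minimum total 15). It left 14063 genes, all 67 members among them, and 4 residual degrees of freedom. Two-sided p-values were adjusted over all genes tested (Benjamini-Hochberg). The fit was tested on simulated data in which all libraries had the same spread. That test does not cover the unequal spread of the groups here. Alternatives used DESeq2 1.42.0, limma 3.58.1 (voom, and trend on log2(TPM + 1) or log2(TPM + 0.1)), other filters, fits without the other groups, a block for the replicate number, and leaving out each library. Ratios of genes with few counts carry exact binomial 95% intervals.

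The members, lists and tests were chosen with earlier results of these data known. Named are the 4 members of each family with the highest mean TPM, up to 6 called rises and 6 called falls per comparison without overlap between libraries, up to 4 genes per pathway list with the smallest adjusted p at day 4, and 11 regulators, cofactor genes and transporters whatever their values; others named, such as Cyp2d26, Cyp2j6 and Cyp2d22, were picked after their values were seen. Shared sequence was counted in stretches of 50 bases of GENCODE M21 transcripts. The 36 pseudogene symbols and 1 antisense symbol of these families were left out.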

Additional observations from a re-analysis of the deposited data

Results flagged for a closer look

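In 14 members the irradiation effect differed between the days by a test of the difference itself (edgeR's quasi-likelihood test, Benjamini-Hochberg adjusted over all genes). The log2 effect at day 7 minus that at day 4 was -3.27 for Cyp3a25, -2.43 for Cyp4b1, -1.94 for Cyp2b10, -1.84 for Cyp3a13, -1.78 for Cyp4f14, -1.60 for Sult1b1, -1.01 for Cyp2j6, -0.96 for Ugt2a3, -0.87 for Ces2c and -0.69 for Sult1d1. It was 0.70 for Ugt1a7c, 0.77 for Ugt1a6a, 0.99 for Ces1e and 1.38 for Ces1g. For Ces2f the value was -3.98, but this gene and Cyp4a10 were members through irradiated organoids at day 4 only. The choice fixed the day 4 rise that enters the difference, so a smaller effect at day 7 is no finding for them. The counts of Ces2f at day 7 were 8 against 4, and its adjusted p was 0.400 without control day 7 replicate 2. Calls were also lost without any 1 of the 4 day 7 libraries for Cyp4f14, Cyp2j6 and Sult1d1 (highest adjusted p 0.0912, 0.0880 and 0.131), for Sult1b1 and Ugt2a3 (0.167 and 0.111), and without 3 of those 4 for Ces2c (0.0658). Cyp3a13 alone held its call without each library in turn.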

How the results depend on the processing

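The counts of called members were 48 at day 4, 18 at day 7, 16 for irradiation by day, 7 between days in controls and 38 between days after irradiation. Leaving out 1 library gave 41 to 50, 6 to 28, 2 to 30, 1 to 14 and 17 to 43. In those fits the share of all genes called moved too. Deviations of same-numbered samples gave no sign of pairing (correlations from -0.036 to 0.058). That cannot show whether such samples shared a culture or mouse. The fit with the replicate block called 49, 15, 12, 7 and 37, each within 1.5 times. Members with whole counts in all 8 libraries (within 0.001 of a whole number), 17 in all, gave 11, 5, 3, 2 and 10. Without a filter 29 were called at day 7 and 16 between days in controls. The fit of only the day 7 libraries called 45. With limma on log2(TPM + 1), 8 were called for irradiation by day and 3 between days in controls, and log2(TPM + 0.1) also gave 8 and 3, and 23 between days after irradiation. Unfiltered log2(TPM + 1) with limma gave 4 at day 7, 0 for irradiation by day (27 at an unadjusted p under 0.05), 0 between days in controls (16 at an unadjusted p under 0.05) and 21 after irradiation; DESeq2 gave 19 and 10 where these are 0. The split higher to lower was 2 to 17 with DESeq2 for irradiation by day, 5 to 5 with DESeq2 and 2 to 1 on log2(TPM + 1) between days in controls. Leaving out 1 library moved the split for irradiation by day, 4 to 12, to between 2 to 1 (either irradiated day 7 library) and 0 to 2 (control day 7 replicate 2), and that in controls, 2 to 5, to between 2 to 1 (control day 4 replicate 2) and 0 to 1 (any day 7 library); without control day 4 replicate 1 it was 7 to 5. For Cyp2s1 the irradiation by day value, -0.05 with all libraries, was 0.82 without irradiated day 4 replicate 2 and -0.58 without replicate 1. The fall of Cyp4f16 between days after irradiation became 0.0452 on both log2(TPM + 1) fits and 0.046 on log2(TPM + 0.1); the cause was not tested. Of 103 called results of 43 named genes, 34 held in every setting that gave a value and 69 were lost in 1 or more. Depth limits genes with few counts, given as ratios with intervals.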
